A study of Homo sapiens with 20 samples.

Results

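The 8 genes described here are early growth response genes: *CCN1* (ENSG00000142871), *CCN2* (ENSG00000118523), *DUSP1* (ENSG00000120129), *KLF6* (ENSG00000067082), *KLF10* (ENSG00000155090), *IER2* (ENSG00000160888), *IER3* (ENSG00000137331) and *SNAI2* (ENSG00000019549). They are 8 of the 19029 gene sequences counted in each table, and every one of them has a row. The IDs and symbols came as a fixed list, selected on earlier results of these same libraries. Which values chose each gene is not recorded, so the changes with i14G1-12 are given as a description. Where a count of genes past the threshold of the fit is given for them, it stands beside the share of all genes past it and is no independent evidence. The cells were HEK 293T, a human embryonic kidney line that carries the SV40 large T antigen, with the genotype given as WT. All were kept for 1 h in either DMSO, the solvent, or 5 µM i14G1-12, a compound that the titles of the samples call D12. Formaldehyde crosslinking, RNase I digestion and ultracentrifugation were followed by immunoprecipitation of 1 of 4 initiation factors: eIF4G1, eIF3, eIF1 through its HA tag, or eIF2a, which was HA-tagged as well. The RNA left in the complexes was then sequenced, a method known as selective TCP-seq, which reads the mRNA stretches held by small ribosomal subunits that carry the chosen factor. There were 20 libraries in 8 groups. Each eIF1 or eIF4G1 group had 3 libraries, and each eIF3 or eIF2a group had 2.

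Early growth response genes, also called immediate early and delayed early genes, are switched on within minutes to hours when a resting or stressed cell receives a growth factor, serum or stress signal. Transcription of the immediate early genes needs no newly made protein, and their mRNAs are as a rule short-lived. *CCN1* and *CCN2* encode secreted matricellular proteins that bind integrins, and both are classic targets of the YAP and TEAD transcription regulators. *DUSP1* encodes a nuclear phosphatase that switches off MAP kinases, a negative feedback on the signal that induces it. *KLF6*, *KLF10* and *SNAI2* encode zinc finger transcription factors, of which KLF10 is known as a TGF-beta response gene and SNAI2, or Slug, as a repressor of epithelial genes. *IER2* and *IER3* are immediate early response genes, and IER3 is known for its part in cell survival.

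The promoters of 4 of the 8 genes were matched by symbol in RefSeq (GRCh38.p14), and those of *DUSP1*, *IER2* and *KLF6* are shown because these 3 genes passed the filter on low counts in eIF1, eIF4G1 and eIF3 complexes, which *CCN2* did not. Each run gives the 250 bases that end just before the annotated start site, read 5′ to 3′ on the strand of the gene. Capitals mark TGACG on either strand (the core of the cyclic AMP response element, whose full form is TGACGTCA) and the TATA motif TATAAA.

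DUSP1: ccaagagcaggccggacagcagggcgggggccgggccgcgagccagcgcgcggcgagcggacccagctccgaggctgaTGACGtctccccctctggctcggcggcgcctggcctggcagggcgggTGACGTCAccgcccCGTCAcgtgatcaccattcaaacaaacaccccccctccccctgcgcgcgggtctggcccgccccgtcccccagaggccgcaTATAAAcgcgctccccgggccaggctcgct
IER2: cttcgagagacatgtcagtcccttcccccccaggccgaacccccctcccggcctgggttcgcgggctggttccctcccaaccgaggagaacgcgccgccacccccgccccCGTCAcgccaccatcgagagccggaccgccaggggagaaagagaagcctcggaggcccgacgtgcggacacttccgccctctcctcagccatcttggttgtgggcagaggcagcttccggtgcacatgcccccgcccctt
KLF6: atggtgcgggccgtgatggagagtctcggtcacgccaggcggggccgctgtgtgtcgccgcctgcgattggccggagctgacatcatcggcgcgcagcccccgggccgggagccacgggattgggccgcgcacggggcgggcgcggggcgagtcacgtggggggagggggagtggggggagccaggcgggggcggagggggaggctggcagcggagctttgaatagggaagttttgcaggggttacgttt

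The windows lie at chr5:172771196-172771445 (minus strand) for *DUSP1*, chr19:13150161-13150410 (plus strand) for *IER2* and chr10:3785210-3785459 (minus strand) for *KLF6*. Motifs were searched on both strands. *DUSP1* holds the full element TGACGTCA once, as 1.65% of 35116 promoters of this length do. It holds the core TGACG at 4 places, of which the pair at -125 and -122 belongs to that full element. *IER2* holds the core at 1 place and *KLF6* at none, and 21.2% of all promoters hold at least 1. In the promoter of *CCN2* (chr6:131951373-131951622, minus strand) GGAATG, the TEAD motif, lies at 3 places, starting at -169, -104 and -95. At least 3 places are found in 0.0826% of promoters, and 11.9% have at least 1. None of the 4 promoters has a CArG box, the site of serum response factor, which 1.16% of all promoters hold. TATAAA is in *DUSP1* and *CCN2*, as in 10.7% of all promoters, and GGGCGG is in all 4, as in 42.6%. These matches describe the letters in the windows and nothing was tested on them.

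By RefSeq (GRCh38.p14), *CCN1* lies at chr1:85580761-85583950, *CCN2* at chr6:131948176-131951372, *DUSP1* at chr5:172768096-172771195, *KLF6* at chr10:3775996-3785209, *IER2* at chr19:13150411-13154911 and *IER3* at chr6:30743199-30744547. *KLF10* and *SNAI2* are both on chromosome 8. *CCN2* overlaps CCN2-AS1 and *IER3* overlaps IER3-AS1. The sources used here do not give the strand setting of the counting, so reads of these 2 genes and of their overlapping partners cannot be told apart. The counted sequences of the 8 genes run from 1237 nt (*IER3*) to 4590 nt (*KLF6*), with the other 6 between 2013 and 2915 nt, and the median of all 19029 is 2957 nt.

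Library totals ran from 10033 to 1161512 counts. They were 503668 to 1161512 for eIF1, 243145 to 1085854 for eIF4G1, 59179 to 582437 for eIF3 and 10033 to 269816 for eIF2a. The 2 shallowest libraries were eIF2a DMSO 2 with 10033 counts and eIF3 DMSO 2 with 59179. Where single values of a gene are listed, these libraries give the second DMSO value of eIF2a and of eIF3. A single count is worth 52.9 CPM in eIF2a DMSO 2 and 13.9 CPM in eIF3 DMSO 2. A count of 0 there allows up to 159 and 41.7 CPM (3 counts, counting error only). Levels are counts per 1000000 (CPM) on library sizes scaled by TMM over all 20 libraries. No input RNA was analysed here, so a higher level in an immunoprecipitate and a higher amount of the mRNA in the cell cannot be told apart. The IDs of the tables could not be paired with symbols beyond the 8 genes, so cell markers and other genes of these pathways were not examined. The eIF1 columns carry no replicate number of the labels, and their libraries are called a, b and c here. Nothing in the labels ties the libraries of a group to separate cultures. The p-values then reflect how far these libraries differ among themselves, and that may be technical variation alone.

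Compared per kilobase of counted sequence, *DUSP1* and *IER2* stood highest of the 8 genes in eIF1 complexes under DMSO. *DUSP1* was at 38.7 ± 5.11 CPM per kb there (SD, n = 3) and *IER2* at 30.5 ± 6.91. *IER3* followed at 13.8 ± 8.47, *KLF6* at 10.2 ± 3.00 and *SNAI2* at 7.70 ± 1.62 CPM per kb. *CCN1* (5.21 ± 3.66), *KLF10* (5.15 ± 2.46) and *CCN2* (2.18 ± 1.90) were lowest in CPM per kb and lay within each other's spread. In eIF4G1 complexes under DMSO the order differed, with *SNAI2* first at 22.5 ± 6.88 CPM per kb (SD, n = 3), above *DUSP1* at 11.8 ± 4.05 and *IER2* at 8.63 ± 2.74. The last 2 differed by less than their spread. *SNAI2* was thus at percentile 66.0 of all genes by CPM per kb in eIF1 and at percentile 83.0 in eIF4G1, and *DUSP1* at 88.9 and 73.2. Where the reads lie along the counted sequence was not examined, so whether its whole length is the right divisor is not known. The places of *DUSP1* and *IER2* in eIF1 and of *SNAI2* in eIF4G1 at the top were the same in CPM. Other places depend on the division. In eIF1 under DMSO *KLF6*, the longest, was at 46.8 ± 13.8 CPM, above *IER3*, the shortest, at 17.03 ± 10.48 (SD, n = 3).

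**Figure D1:**
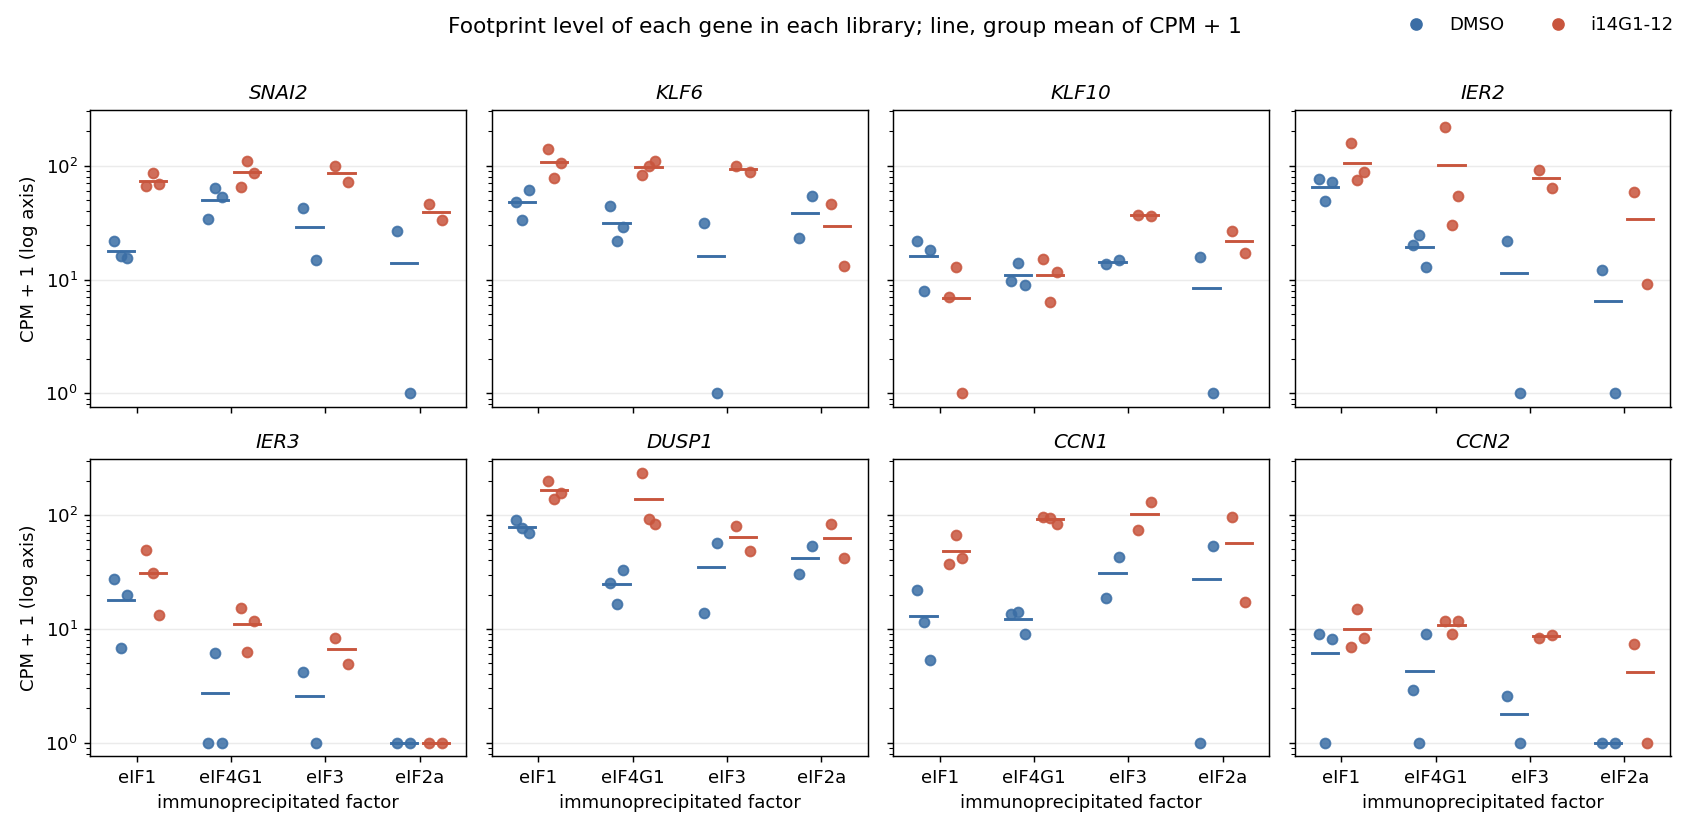
Level of each of the 8 genes in every library, as CPM + 1 on a log axis, for each immunoprecipitated factor in DMSO (blue) and i14G1-12 (red); points are libraries and lines are group means. In eIF4G1 complexes *CCN1* sat at 82.9 to 95.8 CPM after i14G1-12 and at 7.97 to 12.99 in DMSO, while the *KLF10* libraries of the 2 groups overlapped.

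With i14G1-12, *CCN1* was higher in eIF4G1 complexes by the largest fold of the 5 listed genes that passed the filter on low counts there. In eIF4G1 complexes the 3 DMSO libraries of *CCN1* held 12.5, 12.99 and 7.97 CPM and the 3 i14G1-12 libraries 95.8, 93.1 and 82.9 CPM. The groups were far apart and the treated libraries close together, at a log2 fold change of 2.93 (SE 0.49, n = 3 each). In eIF1 complexes it was at 20.8, 10.5 and 4.30 CPM in DMSO and at 36.0, 65.3 and 41.2 CPM in i14G1-12. All treated libraries again lay above all controls, at a log2 fold change of 1.96 (SE 0.52, n = 3 each). In eIF3 complexes *CCN1* held 17.5 and 41.7 CPM in DMSO and 72.5 and 130.2 CPM in i14G1-12 (log2 fold change 2.06, SE 0.76, n = 2 each). The value of 41.7 CPM is 3 counts in the shallow library, and without it the log2 fold change was 2.48. In eIF2a complexes the DMSO libraries had 0 and 1 count and the i14G1-12 libraries 15 and 4 counts of *CCN1*. As summed counts this is a 13.7-fold ratio with an exact 95% interval of 2.18 to 569.6, for counting error only. The single DMSO count lies in the library of 10033 counts. The fitted log2 fold change was 3.55 (SE 1.41, n = 2 each), 1.24 with a prior count of 5 and 1.82 by DESeq2. With that library as the only control it turned to -0.34, and without it the only control has 0 counts.

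*CCN2*, the sister gene, was near the limit of these libraries. It had 12 counts in all in the 3 eIF1 DMSO libraries and 12 in the 3 i14G1-12 libraries, which are smaller. Scaled for library size that is a ratio of 1.93 (exact 95% interval 0.794 to 4.70, counting error only). In any library of eIF4G1 it had at most 12 counts. It did not pass the filter on low counts in any of the 4 comparisons. In eIF4G1 complexes the summed counts were 4 in DMSO and 18 in i14G1-12, a ratio of 4.23 (exact 95% interval 1.39 to 17.2, counting error only). The highest DMSO library, at 7.97 CPM, and the lowest i14G1-12 library, at 7.98 CPM, met. In eIF3 complexes it had 1 and 4 summed counts (ratio 5.28, interval 0.523 to 260.2), and in eIF2a complexes 0 and 1. At this depth no change of *CCN2* was detectable in eIF1, eIF3 or eIF2a complexes. The interval in eIF4G1 complexes leaves out the variation between replicate libraries, so no change was shown there either.

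*DUSP1* had the highest mean level in CPM of the 8 genes after i14G1-12 in eIF1 and in eIF4G1 complexes, in the latter through 1 library. In eIF4G1 its DMSO libraries were at 24.1, 15.6 and 31.9 CPM and its i14G1-12 libraries at 234, 90.4 and 82.9 CPM. One treated library, number 1, was over 2 times the others, but even the lowest treated library was above every control. In libraries 2 and 3 *DUSP1* was below *KLF6* and *SNAI2*. The log2 fold change was 2.49 (SE 0.47, n = 3 each), and without library 1 it was 1.88. In eIF1 complexes *DUSP1* began higher, at 89.1, 75.9 and 68.8 CPM in DMSO, and reached 198, 138 and 155 CPM in i14G1-12. The groups did not overlap, and the log2 fold change was 1.03 (SE 0.25, n = 3 each). In eIF3 complexes the levels were 12.8 and 55.7 CPM in DMSO and 79.8 and 47.3 CPM in i14G1-12. These overlapped, and the higher DMSO value is 4 counts in the shallow library. The log2 fold change in eIF3 was 1.43 (SE 0.86, n = 2 each), 2.28 without that library and 0.11 with it as the only control. In eIF2a complexes *DUSP1* was at 29.4 and 52.9 CPM in DMSO, the latter a single count, and at 83.1 and 40.5 CPM in i14G1-12 (log2 fold change 0.88, SE 0.73, n = 2 each, and -0.13 with the single-count library as the only control).

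Of the transcription factor genes, *SNAI2* had the largest fold in eIF1 complexes. It was at 20.8, 15.2 and 14.3 CPM in DMSO and at 66.0, 85.1 and 67.9 CPM in i14G1-12. The groups were well separated, at a log2 fold change of 2.09 (SE 0.39, n = 3 each). In eIF4G1 complexes *SNAI2* started from a higher level, 32.8, 62.3 and 51.8 CPM in DMSO, and ended at 63.9, 109 and 85.6 CPM in i14G1-12. The groups were adjacent without overlap, at a log2 fold change of 0.87 (SE 0.41, n = 3 each). In eIF3 complexes it was at 41.5 and 13.9 CPM in DMSO and 97.9 and 71.0 CPM in i14G1-12 (log2 fold change 1.27, SE 0.68, n = 2 each). The value of 13.9 CPM is 1 count in the shallow DMSO 2, and without that library the log2 fold change was 1.01. In eIF2a complexes *SNAI2* had 7 and 0 counts in DMSO and 7 and 8 in i14G1-12, a ratio of summed counts of 1.55 (exact 95% interval 0.593 to 4.48), and was not tested.

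*KLF6* was higher with i14G1-12 in eIF1, eIF4G1 and eIF3 complexes. In eIF1 complexes it was at 47.4, 32.7 and 60.2 CPM in DMSO and 138, 77.2 and 104 CPM in i14G1-12 (log2 fold change 1.15, SE 0.32, n = 3 each). In eIF4G1 complexes it was at 43.4, 20.8 and 27.9 CPM in DMSO and 81.6, 98.4 and 109.7 CPM in i14G1-12 (log2 fold change 1.597, SE 0.42, n = 3 each). No treated library of either fell among the controls. In eIF3 complexes *KLF6* had 30.3 CPM in DMSO 1 and 0 counts in the shallow DMSO 2, against 97.9 and 86.8 CPM in i14G1-12 (log2 fold change 1.95, SE 0.75, n = 2 each, and 1.58 without DMSO 2). In eIF2a complexes it had 6 and 1 counts in DMSO and 7 and 3 in i14G1-12, with no difference detectable at this depth (ratio of summed counts 1.03, exact 95% interval 0.354 to 3.19).

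*KLF10* had low counts throughout, at most 18 in any library. In eIF1 complexes it was at 20.8, 7.004 and 17.2 CPM in DMSO and at 5.996, 11.9 and 0 CPM in i14G1-12, so its level was lower on average and the libraries overlapped. The summed counts were 36 and 8, a ratio of 0.429 (exact 95% interval 0.172 to 0.940, counting error only). In eIF4G1 complexes it was at 8.67, 12.99 and 7.97 CPM in DMSO and 14.2, 5.32 and 10.7 CPM in i14G1-12, with a ratio of summed counts of 1.06 (interval 0.509 to 2.22). In eIF3 complexes *KLF10* was at 12.8 and 13.9 CPM in DMSO and 36.3 and 35.5 CPM in i14G1-12, a ratio of 2.79 (interval 1.20 to 6.998). The second eIF3 DMSO value is 1 count. In eIF2a complexes *KLF10* had 4 and 0 counts in DMSO (14.7 and 0 CPM) and 4 and 4 in i14G1-12 (25.6 and 16.2 CPM). The ratio of summed counts there was 1.44 (interval 0.387 to 6.55). *KLF10* passed the filter in none of the 4 comparisons, and its change had no test within them. In the fit to all 20 libraries, which it did pass, the difference between its effects in eIF1 and eIF4G1 was -1.26 on the log2 scale (SE 1.18, edgeR adjusted p = 0.99985, 95% interval -3.83 to 1.32).

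*IER2*, like *DUSP1*, was highest in i14G1-12 library 1 of eIF4G1. Its DMSO libraries were at 19.3, 23.4 and 12.0 CPM and its i14G1-12 libraries at 216, 29.3 and 53.5 CPM. Library 1 was again the highest, far above the other two, and the log2 fold change of 2.33 (SE 0.61, n = 3 each) became 1.19 without it. In eIF1 complexes *IER2* was at 75.2, 47.9 and 70.3 CPM in DMSO and at 156, 73.2 and 87.3 CPM in i14G1-12. The groups overlapped slightly, and the log2 fold change was 0.66 (SE 0.31, n = 3 each), or 0.31 without i14G1-12 a. In eIF3 complexes the values were 20.7 CPM and 0 counts in DMSO against 90.7 and 63.1 CPM (log2 fold change 2.17, SE 0.80, n = 2 each). The 0 lies in the shallow DMSO 2, and without that library the log2 fold change was 1.86. In eIF2a complexes *IER2* had 3 and 0 counts in DMSO and 9 and 2 in i14G1-12, a ratio of summed counts of 2.65 (exact 95% interval 0.699 to 14.8), and was not tested.

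*IER3* was measurable mainly in eIF1 complexes. There it was at 26.6, 5.84 and 18.6 CPM in DMSO and 48.0, 29.7 and 12.1 CPM in i14G1-12, and the groups overlapped widely (log2 fold change 0.76, SE 0.58, n = 3 each). In eIF4G1 complexes it had 2 counts in all 3 DMSO libraries together and 18 in i14G1-12, a ratio of 8.46 with an exact 95% interval of 2.03 to 75.2 for counting error only. The lowest treated library of *IER3* (5.32 CPM) barely exceeded the highest control (5.20 CPM), each of them 2 counts. In eIF3 complexes the summed counts of *IER3* were 2 and 3 (ratio 1.98, interval 0.227 to 23.7). In eIF2a complexes all 4 libraries were at 0, which allows up to 11.03 and 159 CPM in the DMSO libraries and 19.2 and 12.2 CPM in the i14G1-12 libraries.

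Counted over each comparison, the genes that passed the filter were all above 0 on the log2 scale, but few were called by edgeR's quasi-likelihood test at an adjusted p of 0.05. *KLF10*, lower in eIF1 complexes by summed counts (ratio 0.429), did not pass the filter and is not among them. A gene can pass the filter through the treated group alone, and the list was chosen with these contrasts known, so nothing is read from the counts. In eIF1 complexes 6 of the 8 passed the filter and 1, *SNAI2*, was called higher, where 0.324% of all genes tested were. All treated libraries lay above all controls for 4 of the 6 (*CCN1*, *DUSP1*, *KLF6* and *SNAI2*), and for 8.86% of all genes tested. The median log2 fold change was 1.09 for the 6 and 0.0048 for all genes tested. TMM scaling holds the median of all genes near 0 in each comparison. With scaling to total counts it was -0.131 in eIF1, -0.156 in eIF4G1, -0.0669 in eIF3 and 0.0043 in eIF2a. Neither scaling would show a change common to most mRNAs, so higher means higher relative to the other genes. In eIF4G1 complexes 5 passed the filter and 2, *CCN1* and *DUSP1*, were called higher, where 0.347% of all genes were. All treated libraries lay above all controls for each of the 5 and for 7.22% of all genes tested, and the median log2 fold changes were 2.33 and -0.0053.

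In eIF3 complexes 5 genes passed the filter, with 0 called by edgeR and 0 by DESeq2. By edgeR 3 of the 5 had an unadjusted p under 0.05, as had 110 of all 6300 genes tested. Of all genes tested there, 0.0159% were called higher. Both treated libraries lay above both controls for 4 of the 5 and for 13.8% of all genes tested, and the median log2 fold changes were 1.95 and 0.0175. With the shallow DMSO 2 as the only control, the log2 values in eIF3 were 1.18 for *CCN1* and 2.47 for *SNAI2*, and *KLF6* and *IER2* have 0 counts in that library. In eIF2a complexes *CCN1* and *DUSP1* passed the filter, with 0 of the 2 called by edgeR and 0 by DESeq2. By edgeR 1 of the 2 had an unadjusted p under 0.05, as had 87 of all 4719 genes tested. Of all genes tested there 0% were called higher. *CCN1* and *DUSP1* both overlapped between the groups, while 21.8% of all genes had every treated library above every control.

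Each of the 3 calls was lost when certain single libraries were left out. *SNAI2* in eIF1 complexes was no longer called without DMSO b, DMSO c, i14G1-12 b or i14G1-12 c, at log2 values of 2.04, 2.00, 1.95 and 2.13. *CCN1* in eIF4G1 complexes was no longer called without DMSO 1 (3.02) or DMSO 3 (2.80), and *DUSP1* not without DMSO 1 (2.52), DMSO 2 (2.28) or DMSO 3 (2.65). The sizes thus stayed near those with all libraries. Leaving out single libraries also added calls, *CCN1* in eIF1 without DMSO a (log2 fold change 2.59), *KLF6* and *IER2* in eIF4G1 without i14G1-12 1 and i14G1-12 2 (1.68 and 2.76), and *CCN1* in eIF2a without i14G1-12 2 (4.50). *IER2* in eIF4G1 was also called with no filter (2.26) and in 1 fit to all 20 libraries (2.30).

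**Figure D2:**
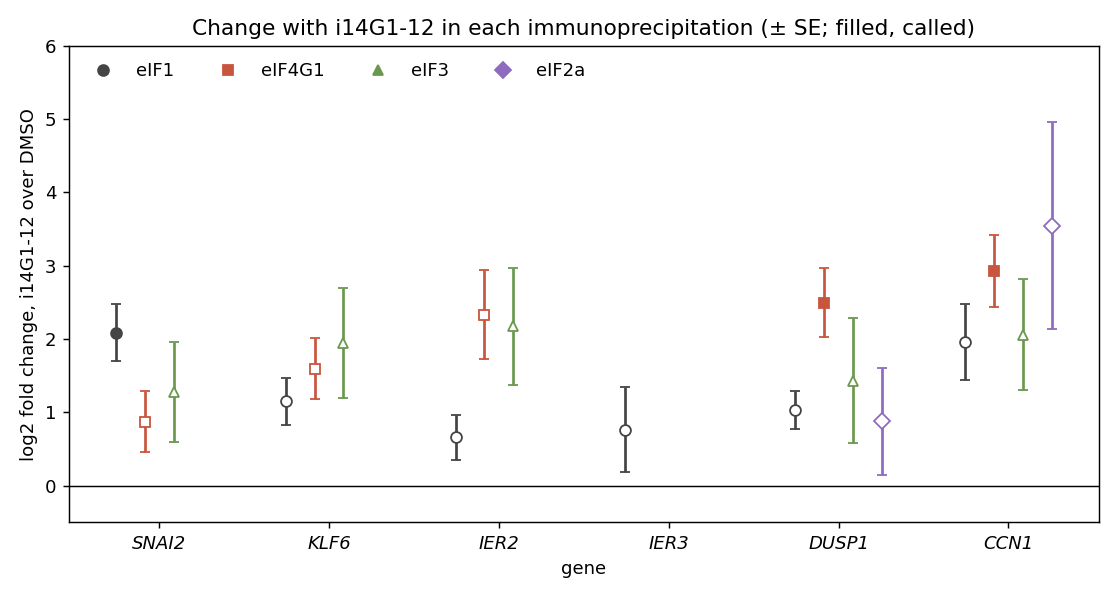
Log2 fold change of i14G1-12 over DMSO for the genes that passed the filter on low counts, with bars of 1 SE, by immunoprecipitated factor; filled symbols were called at an adjusted p of 0.05 over all genes tested and open symbols were not. All plotted values lie above 0, from 0.66 (*IER2* in eIF1) to 3.55 (*CCN1* in eIF2a, from 0 and 1 counts in DMSO), and 3 are filled. *KLF10*, whose ratio of summed counts in eIF1 was 0.429, did not pass the filter and is not plotted.

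The levels in eIF1 and eIF4G1 complexes were compared within each treatment. Whether these differences also served to choose the list is not recorded, so their p-values are no independent evidence. Factor, antibody, the HA tag and any difference in how the libraries were made cannot be told apart in this comparison. Under DMSO, *DUSP1* was higher in eIF1 complexes, at 77.9 ± 10.3 CPM against 23.9 ± 8.15 in eIF4G1 (SD, n = 3 each). The groups did not overlap, and the log2 difference was 1.73 (SE 0.44, edgeR adjusted p = 0.0199). *DUSP1* was the 1 gene called among the 6 that passed the filter on all 20 libraries, and 2.06% of all genes tested were called. It lost the threshold without eIF1 DMSO a or without any 1 of the 3 eIF4G1 DMSO libraries (edgeR adjusted p up to 0.160, log2 differences 1.502 to 1.86) and with scaling to total counts (1.39, edgeR adjusted p = 0.0957). That scaling shifted the median log2 difference of all genes from -0.01 to -0.35.

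*IER2* differed by as much under DMSO but did not pass. It was at 64.4 ± 14.6 CPM in eIF1 complexes, against 18.2 ± 5.79 for eIF4G1 (SD, n = 3 each), a log2 difference of 1.76 (SE 0.53, edgeR adjusted p = 0.0630). *SNAI2* lay the other way, at 16.8 ± 3.53 CPM in eIF1 complexes, against 49.0 ± 15.0 for eIF4G1 (SD, n = 3 each), a log2 difference of -1.47 (SE 0.44, edgeR adjusted p = 0.0646). For both genes, as for *DUSP1*, the 3 libraries of one factor lay wholly above the 3 of the other. The share of all genes separated in this way was not counted, so nothing is read from it. Over 26 alternatives *IER2* was called in 8 (edgeR adjusted p from 0.0176 to 0.351) and *SNAI2* in 5 (from 0.0221 to 0.282), always in the same direction. *KLF6* (log2 difference 0.51, SE 0.43), *KLF10* (0.59, SE 0.78) and *CCN1* (0.05, SE 0.61) had 95% intervals that included 0 under DMSO. *CCN1* was at -0.31 with scaling to total counts, moved by about as much as the median of all genes.

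Under i14G1-12 the corresponding differences were nearer to 0 for *DUSP1*, *IER2* and *SNAI2*. *DUSP1* was at 164 ± 30.6 CPM in eIF1 complexes, against 136 ± 85.3 for eIF4G1 (SD, n = 3 each), a log2 difference of 0.32 (95% interval -0.51 to 1.14). *IER2* stood at 105 ± 44.2 and 99.7 ± 102 CPM, a difference of 0.15 (-0.87 to 1.16), and *SNAI2* at 73.0 ± 10.5 and 86.2 ± 22.6 CPM, a difference of -0.24 (-1.10 to 0.62). *KLF6*, at 106 ± 30.4 and 96.6 ± 14.1 CPM (SD, n = 3 each), differed by 0.11 (-0.75 to 0.97). *CCN1* was lower in eIF1, at 47.5 ± 15.6 CPM against 90.6 ± 6.80 (SD, n = 3 each), by -0.90 (-1.94 to 0.14). EdgeR called 0 of the 6 genes, 0 had an unadjusted p under 0.05, and the lowest edgeR adjusted p was 0.386. Of all genes tested 1.09% were called, and 1363 of 9426 had an unadjusted p under 0.05. Without eIF4G1 i14G1-12 1 the difference was 0.91 for *DUSP1* and 1.25 for *IER2*, so the values near 0 rest on that library. Scaling to total counts moved the median log2 difference of all genes from -0.0053 to -0.36, and *DUSP1*, *KLF6* and *IER2* moved with it to -0.035, -0.29 and -0.23.

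**Figure D3:**
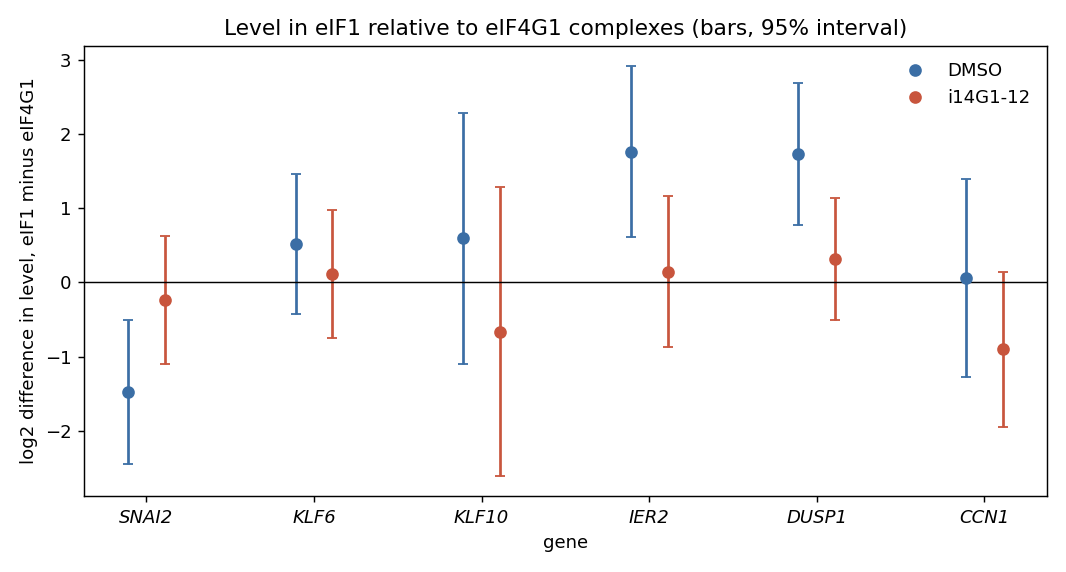
Log2 difference in level between eIF1 and eIF4G1 complexes for the 6 genes that passed the filter on all 20 libraries, in DMSO (blue) and i14G1-12 (red), with 95% intervals of the difference. Under DMSO *DUSP1* (1.73) and *IER2* (1.76) lie above 0 and *SNAI2* (-1.47) below it, and under i14G1-12 the intervals of all 6 include 0.

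Whether the effect of i14G1-12 differed between immunoprecipitations was examined in the same fit. Relative to eIF4G1, the effect in eIF1 on the log2 scale differed by -1.42 for *DUSP1* (SE 0.58), by -1.61 for *IER2* (SE 0.70) and by 1.23 for *SNAI2* (SE 0.59). For *CCN1* the difference was -0.95 (SE 0.78) and for *KLF6* -0.40 (SE 0.58). EdgeR called 0 of the 6 (edgeR adjusted p = 0.99985 for each), and 0.0318% of all genes were called. An unadjusted p under 0.05 was found for 3 of the 6 and for 295 of all 9426 genes. Without eIF4G1 i14G1-12 1, the library in which *DUSP1* and *IER2* were highest, the differences were -0.82 for *DUSP1* and -0.51 for *IER2*. Over all 4 immunoprecipitations edgeR also called 0 of the 6 genes, and 0.0212% of all genes were called. An unadjusted p under 0.05 was found there for 0 of the 6 and for 170 of all 9426 genes. A difference between the factors in how these genes changed was therefore not shown.

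The genes whose pattern was most like the mean of the 6 tested early growth response genes were looked up over the 20 libraries, with each gene centred on its mean within an immunoprecipitation. ENSG00000120738 had the highest Pearson's r, 0.92, and ENSG00000204389 came next among genes outside the list, at 0.896. Their IDs were not paired with a symbol here. ENSG00000120738 went from 7.24 ± 4.62 to 234 ± 139 CPM in eIF4G1 complexes and from 10.05 ± 3.79 to 108 ± 52.8 CPM in eIF1 complexes (SD, n = 3 each). Of the 6 genes themselves, which are part of that mean, *IER2* had an r of 0.897, *KLF6* 0.775, *CCN1* 0.757, *DUSP1* 0.746, *SNAI2* 0.728 and *KLF10* 0.368. Of all 9426 genes 8.97% had an r above 0.5. The libraries share treatment and depth, so r is a description and has no p.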

How the data were processed

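For each immunoprecipitation the authors deposited 1 table of counts, not normalized. The submitters' processing notes name hg38 and featureCounts, HISAT2, Bowtie, Trimmomatic and cutadapt; versions, strand and multi-mapping settings are not given in the sources used here. Per the file headers, reads were counted on 1 sequence per gene, and its length in the deposited tables gave CPM per kb. The members and lists were chosen with earlier results of these data known.

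Each treatment comparison was fitted across all genes on its own libraries with edgeR 4.0.16 (R 4.3.3; filterByExpr with a minimum of 10 counts, TMM, glmQLFit, glmQLFTest), and levels and differences between effects in 1 fit to 20 libraries. Benjamini-Hochberg adjustment ran over all genes tested (threshold 0.05). The SE is the absolute log2 value over the square root of F, and 95% intervals use 12 residual degrees of freedom. The edgeR tests borrow information across genes and use more, so these intervals are wider than the tests imply. For the *SNAI2* difference between effects in eIF1 and eIF4G1 the interval was -0.06 to 2.52, with an unadjusted edgeR p of 0.042. Printed CPM are scaled over 20 libraries and treatment fold changes within an immunoprecipitation. Scripts were tested on simulated data. Replicate libraries differed by more than counting noise (chi-square per degree of freedom 1.43 to 11.2). Further genes were named by the highest Pearson's r with the mean of the members. Symbol lists and cell markers were not run, because 0 IDs matched the reference table. Alternatives were DESeq2 1.42.0, other scaling and filters, a prior count of 5, 1 fit for all libraries, a replicate block and leaving out each library.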

Additional observations from a re-analysis of the deposited data

How the results depend on the processing

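Single-library effects on each call stand with the results. For single genes, 638 of 687 alternative values gave the same direction and call, 14 were no longer called, 23 were newly called and 12 turned sign; the cause was not tested. The count of genes called in eIF1 complexes, 1 of 6, became 3 with no filter and 0 to 2 leaving out each library. At a minimum of 30 counts it stayed at 1, but the gene was *DUSP1*, as *SNAI2* did not pass that filter. In eIF4G1 complexes 2 became 0 to 3 leaving out each library, and in eIF2a complexes 0 became 0 to 1. Under DMSO the 1 gene called between eIF1 and eIF4G1 became 2 with DESeq2 size factors and 2 with no filter. In fits chosen after seeing the data the count became 2 without the 2 shallowest libraries and 2 in the 12 eIF1 and eIF4G1 libraries alone. Leaving out each library gave 0 to 3. With scaling to total counts 1 gene was called, but it was *SNAI2* (edgeR adjusted p = 0.0221) and not *DUSP1*. Total counts shifted the median of all genes to -0.35 in DMSO and -0.36 in i14G1-12, and the values that turned sign with that common shift were *CCN1* in DMSO (-0.31) and *DUSP1*, *KLF6* and *IER2* in i14G1-12 (-0.035, -0.29 and -0.23). Leaving out 1 library turned *CCN1* in DMSO (-0.62 without eIF1 DMSO a, -0.09 without eIF4G1 DMSO 3), *KLF6* (-0.11) and *IER2* (-0.24) in i14G1-12 without eIF1 i14G1-12 a, *IER2* without eIF4G1 i14G1-12 2 or 3 (-0.28 and -0.20), and *CCN1* and *DUSP1* in eIF2a without DMSO 1 (-0.34 and -0.13). The highest values leaving out each library were 0.39 for *CCN1* in DMSO, 0.27 for *KLF6* and 1.25 for *IER2* in i14G1-12, and 6.56 for *CCN1* (set by the prior count, with 0 counts in the remaining control) and 1.39 for *DUSP1* in eIF2a.

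DESeq2, through its own filter, gave an adjusted p for 2 of the 8 genes in eIF1 (*DUSP1* called, *IER2* not) and for none in eIF4G1. With that filter off, a setting chosen after seeing the data, it called 1 in eIF1 (*SNAI2*) and 2 in eIF4G1 complexes (*CCN1* and *DUSP1*). Over all genes, the 38, 25 and 1 called by edgeR in eIF1, eIF4G1 and eIF3 became 174, 97 and 3 by DESeq2 and 129, 68 and 2 with no filter; in eIF1, 70 were called at a minimum of 30 counts and 4 in 1 fit to all libraries.

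The replicate number as a block left the counts of these genes called at 2 in eIF4G1, 0 in eIF3 and 0 in eIF2a, and called 38 genes in all in eIF3 where 1 was called without it. Deviations of libraries with the same number correlated at 0.0035, -0.100 and -0.146 in eIF4G1, 0.564 in eIF3 and -0.0275 in eIF2a. With 2 libraries in a group the deviations mirror each other, so unlike numbers in eIF3 had to give -0.564. The shallow eIF3 DMSO 2 (59179 counts) enters these values, and an effect of depth on them was not tested. The labels do not call the numbers pairs, and the main fits used none, in eIF3 as well. There the block lowered the edgeR adjusted p from 0.9998 to 0.0728 for *IER2* and 0.111 for *CCN1* and *KLF6*. For *SNAI2* and *DUSP1* it became 0.241 and 0.253. Whether the eIF3 libraries are paired by number was not tested. No paired analysis was possible for eIF1 because its columns carry no replicate number of the labels.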
